A study of Arabidopsis thaliana with 6 samples.

Results

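The cytosolic large (60S) ribosomal subunit of Arabidopsis thaliana is built from ribosomal RNA and proteins that are each encoded by a small family of paralogs. The genes described here are 59 paralogs of 21 of those proteins, P0 and L3 to L19, out of 33602 genes counted. They were taken by gene identifier from a list of the family, and the annotation notes place 47 of them in the cytosolic ribosome. RNA was sequenced from pollen of the Col accession in 2 groups of 3 libraries lettered A to C: paps1-3 pollen, which carries the paps1-3 allele of the nuclear poly(A) polymerase gene PAPS1, and wild-type pollen. The labels write the genotype of the source plants as PAPS1 pLat52::RFP / paps1-3, and grains were flow-sorted on red fluorescence, so both groups come from plants of that genotype. LAT52 is a promoter active in pollen, so the fluorescent marker shows in the grains that inherit it. The label writes the marker with the PAPS1 allele, so by that reading wild-type grains fluoresce and paps1-3 grains do not. Effects of the allele and of the sort therefore cannot be told apart. The sources used here give neither the gates and purity of the sort nor whether the letters stand for separate plants, so the p-values measure the spread between libraries, which may be technical.

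A ribosome joins a small subunit, which reads the messenger RNA, to a large subunit, which forms the peptide bonds and lets the new chain out through a tunnel. Ribosomal proteins are made in the cytoplasm, enter the nucleus, are assembled on ribosomal RNA in the nucleolus and leave again as part of a subunit. A subunit needs 1 copy of most of these proteins, and in plants any of several paralogs can supply it. Mature pollen carries ribosomes and messenger RNA stored during development and starts translating them as the tube germinates.

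The paps1-3 libraries held 19861313 to 41176647 gene counts and the wild-type libraries 31909683 to 37685541. PAPS1 (AT1G17980) had 18, 9 and 3 counts in paps1-3 libraries, against 32, 25 and 20 in wild-type libraries, in the order A to C used for all counts below, a log2 fold change of -2.61 ± 0.57 (SE, adjusted p = 0.000273 by edgeR). Levels below are counts scaled to a common library size (CPM, counts per 10 to the power 6) on library sizes scaled by the trimmed mean of M values (TMM). The TMM factors ranged over 1.47 to 1.68 among paps1-3 libraries and 0.61 to 0.67 among wild-type ones, and scaling by library totals instead moved the median log2 fold change of all 14273 tested genes to 1.63, against 0.37 by TMM, a median shift of 1.25. Directions and calls are therefore given by both scalings wherever they differ. RNA of the mitochondria took 3.27% ± 0.85 of gene counts in paps1-3 and 0.0405% ± 0.0102 of those in wild type (mean and SD of 3 libraries), which moved with the results below, and its part in them was not tested. In bulk RNA of sorted grains, fewer cells of a type and less RNA per cell cannot be told apart. Over 5% of the exon sequence of 13 of the 59 genes overlaps another annotated gene, and since the kit does not mark strand their values are uncertain; beside the genes for which an overlap is given below, these are AT3G09200, AT1G74060, AT4G36130, AT4G18730, AT4G17390, AT1G67430, AT5G27850, AT1G33120 and AT1G33140.

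Most of the 59 genes had low RNA levels in wild-type pollen, and most were higher in paps1-3. Of 57 genes with enough counts to test, 45 were called higher, 5 lower and 7 neither (edgeR quasi-likelihood test, Benjamini-Hochberg adjusted p below 0.05 over all tested genes). Among all genes tested, 42.3% were called higher and 29.9% lower. By library totals 53 of the 57 were called higher and 2 lower, where all tested genes gave 70.3% higher and 9.7% lower. The 45 called higher by TMM were also called higher by totals. The median log2 fold change of the 57 was 3.11 by TMM and 4.36 by totals. Putting the tested genes without a wild-type count at their lower bounds could not move it, as those bounds lie above it. In 45 of the 59 genes every paps1-3 library lay above every wild-type library, in 4 every one lay below, and in 10 the groups overlapped; among all genes tested, 43.9% lay above and 31.6% below. Increases over 4-fold were called in 38 of the genes, against 25.4% of all genes tested.

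**Figure D1:**
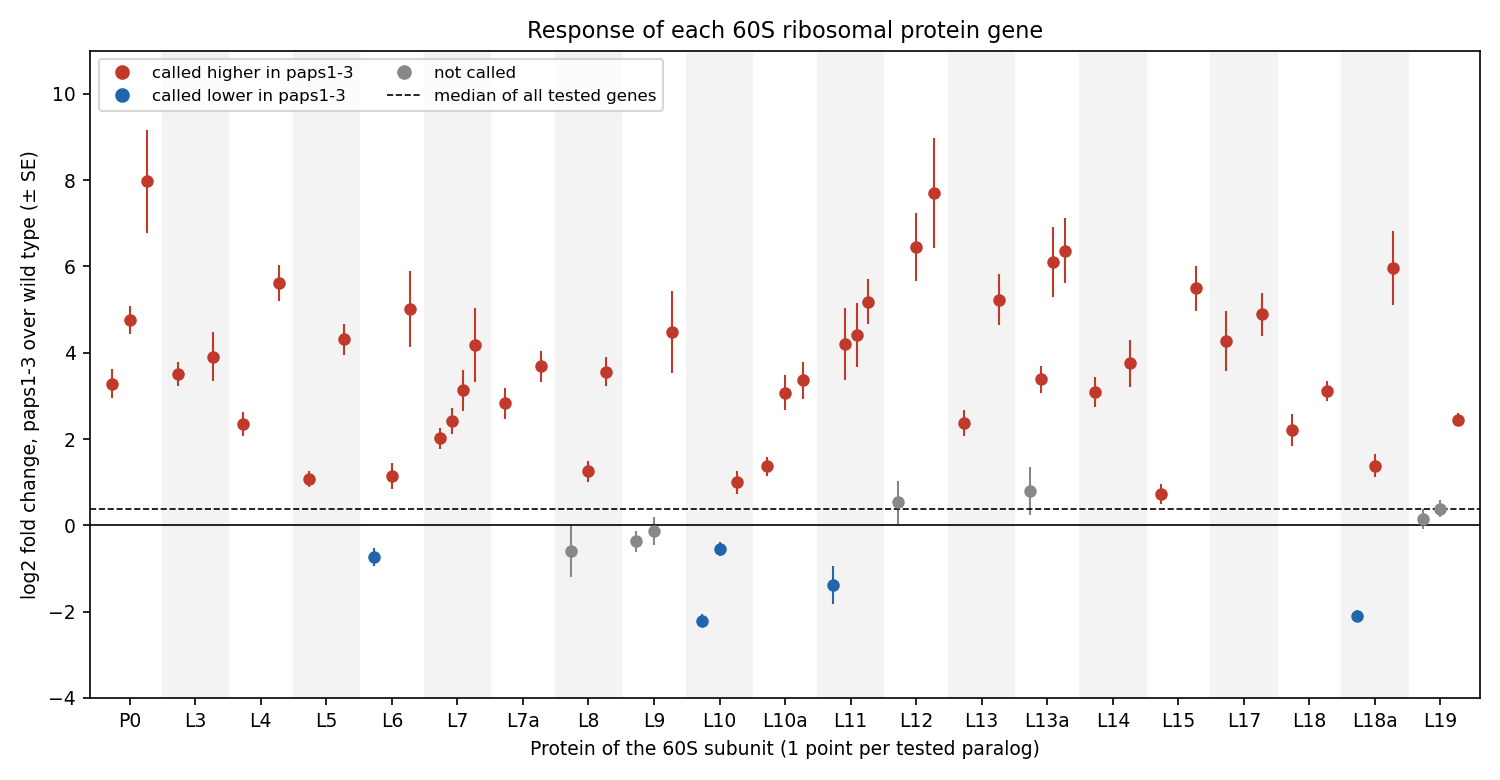
Log2 fold change of each tested gene, paps1-3 over wild type by TMM, grouped by protein along the horizontal axis; points are paralogs, bars are standard errors of the edgeR test (3 libraries per genotype), colours give the call and the dashed line is the median of all tested genes, 0.37. Each of the 21 proteins has a paralog called higher, and the 5 genes called lower belong to L6, L10, L11 and L18a. The fitted values of AT3G11250 (P0) and AT5G60670 (L12), which had no wild-type count, depend on a prior count and are not bounds.

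How a gene passed the count minimum matters for reading these counts. Of the 57, 33 reached the minimum in the paps1-3 libraries but not in all wild-type libraries, so an increase was nearly bound to be seen in them: 31 were called higher and 2 were not called, and among all genes that passed in this way 76.6% were called higher and 0.08% lower. The 23 genes that reached the minimum in every wild-type library are the more informative ones: 14 were called higher, 5 lower and 4 neither, where all 9007 genes of that kind gave 24.5% higher and 47% lower. The remaining tested gene, the L8 gene AT3G51190, was not called. By totals 20 of the 23 were called higher and 2 lower, against 58.3% and 15.4% of the 9007.

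Promoter sequences of 5 genes that the results turn on are shown to let the paralogs be compared. They are the 200 bases upstream of the annotated transcript start (RefSeq annotation of assembly TAIR10.1), read 5′ to 3′ on the strand of the gene. Capitals mark site II elements (TGGGCC or TGGGCT, or GGCCCA or AGCCCA when read from the other strand) and telo boxes (AAACCCTA, or TAGGGTTT from the other strand), a pair of motifs known from promoters of plant genes for ribosomal proteins and other growth-related products. The L10 gene RPL10C lies at chr1:24838890-24839089 (plus strand), the L10 gene SAC52 at chr1:4887914-4888113 (plus strand), the L11 gene RPL16A at chr2:17791492-17791691 (plus strand), the L11 gene AT5G45775 at chr5:18566583-18566782 (minus strand) and the L19 gene AT1G02780 at chr1:609535-609734 (minus strand).
AT1G66580 (RPL10C): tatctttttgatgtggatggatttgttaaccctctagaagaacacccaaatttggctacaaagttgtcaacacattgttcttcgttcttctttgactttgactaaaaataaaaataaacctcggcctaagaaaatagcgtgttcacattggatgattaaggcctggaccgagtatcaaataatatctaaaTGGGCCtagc
AT1G14320 (SAC52): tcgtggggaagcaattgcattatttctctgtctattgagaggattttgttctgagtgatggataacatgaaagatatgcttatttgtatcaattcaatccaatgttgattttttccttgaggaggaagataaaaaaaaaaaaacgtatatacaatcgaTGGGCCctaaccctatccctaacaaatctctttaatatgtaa
AT2G42740 (RPL16A): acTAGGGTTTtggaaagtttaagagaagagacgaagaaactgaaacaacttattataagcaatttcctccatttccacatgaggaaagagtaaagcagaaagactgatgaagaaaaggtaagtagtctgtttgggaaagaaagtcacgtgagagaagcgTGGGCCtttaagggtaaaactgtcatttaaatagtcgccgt
AT5G45775: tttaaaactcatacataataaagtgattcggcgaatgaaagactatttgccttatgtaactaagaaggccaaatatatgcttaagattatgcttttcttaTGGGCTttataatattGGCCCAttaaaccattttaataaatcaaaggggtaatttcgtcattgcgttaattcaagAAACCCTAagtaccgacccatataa
AT1G02780: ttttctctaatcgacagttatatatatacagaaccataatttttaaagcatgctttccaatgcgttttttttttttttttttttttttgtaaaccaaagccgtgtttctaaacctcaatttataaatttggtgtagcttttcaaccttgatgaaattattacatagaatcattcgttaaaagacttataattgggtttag

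RPL10C and SAC52 each hold 1 site II element, the L11 pair each hold both kinds of motif, and the promoter of AT1G02780 holds neither. Searched on both strands, a site II element was found in 46 of the 59 promoters (78%), against 17.6% of 27443 protein-coding nuclear genes, and a telo box in 14 (23.7%), against 3.72%. Both kinds were found in 12 promoters (20.3%, against 1.03%) and neither in 11 (18.6%, against 79.7%). The motifs can overlap by their end bases, and each was counted on its own. The median log2 fold change was 3.13 for the 45 tested genes with a site II element, of which 33 were called higher and 5 lower. It was 2.95 for the 12 tested genes without a site II element, all called higher. All genes tested gave a median of 0.37, with 42.3% higher and 29.9% lower. Most genes of both kinds passed the count minimum through paps1-3 but not in all wild-type libraries. Among all genes that passed in this way 76.6% were called higher, so these calls say little about the motifs. A match is a run of letters and not a measured binding site.

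A pair of genes supplied most of the family's RNA in wild-type pollen, and both were lower in paps1-3. RPL10C (AT1G66580), a gene for L10 that the annotation also lists as senescence associated gene 24, had 3751, 3196 and 1163 counts in paps1-3, against 5848, 4958 and 4808 in wild type. Its level was 51.0 ± 10.5 CPM in paps1-3 and 237 ± 35.6 CPM in wild type, a log2 fold change of -2.21 ± 0.15 (SE, adjusted p = 6.27e-12 by edgeR). RPL18AA (AT1G29970), which the annotation names as a gene for L18a, had 1305, 1847 and 758 counts in paps1-3, against 2226, 2470 and 2690 in wild type. Its level was 25.8 ± 4.60 CPM in paps1-3 and 111 ± 5.69 CPM in wild type. Its log2 fold change, -2.11 ± 0.14, had an adjusted p of 3.41e-12 by edgeR. These were the only members called lower by both scalings, at -0.95 and -0.86 by library totals, and in both genes every paps1-3 library lay below every wild-type library. RPL18AA is a divergent member: its protein shares 51.28% to 56.23% of residues with the other L18a paralogs. Its coding sequence has 939 bases, against 654 and 537 in the others. The annotation notes do not place it in the cytosolic ribosome, so its part as an L18a gene is uncertain. Of its exon sequence, 35.3% overlaps AT1G29965, a gene on the same strand with at most 2 counts in a library. Reads on the shared part can be set aside as ambiguous, so that low count does not settle the overlap.

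The family's RNA was spread over more genes in paps1-3. The gene with the most counts held 21.6% of the family's counts in paps1-3 A and 15.7% in paps1-3 B, both times RPL10C, and 13.1% in paps1-3 C, where it was AT1G02780. In wild-type A, B and C, RPL10C held 59.2%, 51.6% and 50.1%. The most abundant 5, 6 and 8 genes were needed to reach 50% of the family's counts in paps1-3 A, B and C, and 1 gene in each wild-type library. The median level of the 59 genes was 3.17 CPM in paps1-3 and 0.380 CPM in wild type, and the highest was 51.0 CPM and 237 CPM. In wild type 20 genes reached 1 CPM, of which 11 rose, 5 fell and 4 were not called by TMM. Of the 39 below 1 CPM, 34 rose, 3 were not called and 2 were not tested. Those 2 are AT3G48960 (L13), with 8, 13 and 0 counts in paps1-3 and 1, 8 and 6 in wild type, and AT2G47570 (L18), with 4, 0 and 0 counts in paps1-3 and 0 in each wild-type library.

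**Figure D2:**
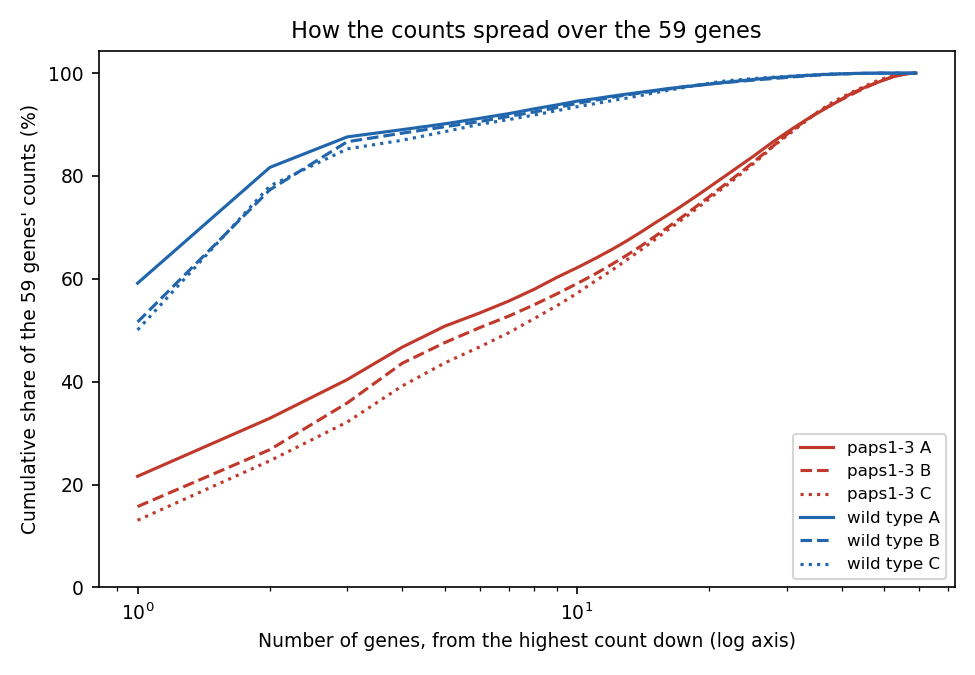
Share of the 59 genes' counts in each library held by the genes ranked from the highest count down (log axis); red lines are paps1-3 and blue lines are wild-type libraries. The first gene holds 50.1% to 59.2% of the counts in wild type and 13.1% to 21.6% in paps1-3, and the lines of the groups do not cross until nearly all genes are included.

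The summed level of the family therefore had no direction that held under both scalings. All 59 genes together took 0.0491% ± 0.0017 of gene counts in paps1-3 and 0.0286% ± 0.0028 of those in wild type, which is higher in paps1-3, while their summed TMM level was lower, at 319 ± 33.9 CPM in paps1-3 and 440 ± 25.9 CPM in wild type. RPL10C and RPL18AA made up 24.3% ± 5.0 of the family's counts in paps1-3 and 79.0% ± 2.3 in wild type. The other 57 genes, a set formed after these levels were seen, summed to 243 ± 40.3 CPM in paps1-3 and 92.0 ± 6.65 CPM in wild type, and their sum was higher in paps1-3 by totals too (0.0372% against 0.00597% of counts).

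**Figure D3:**
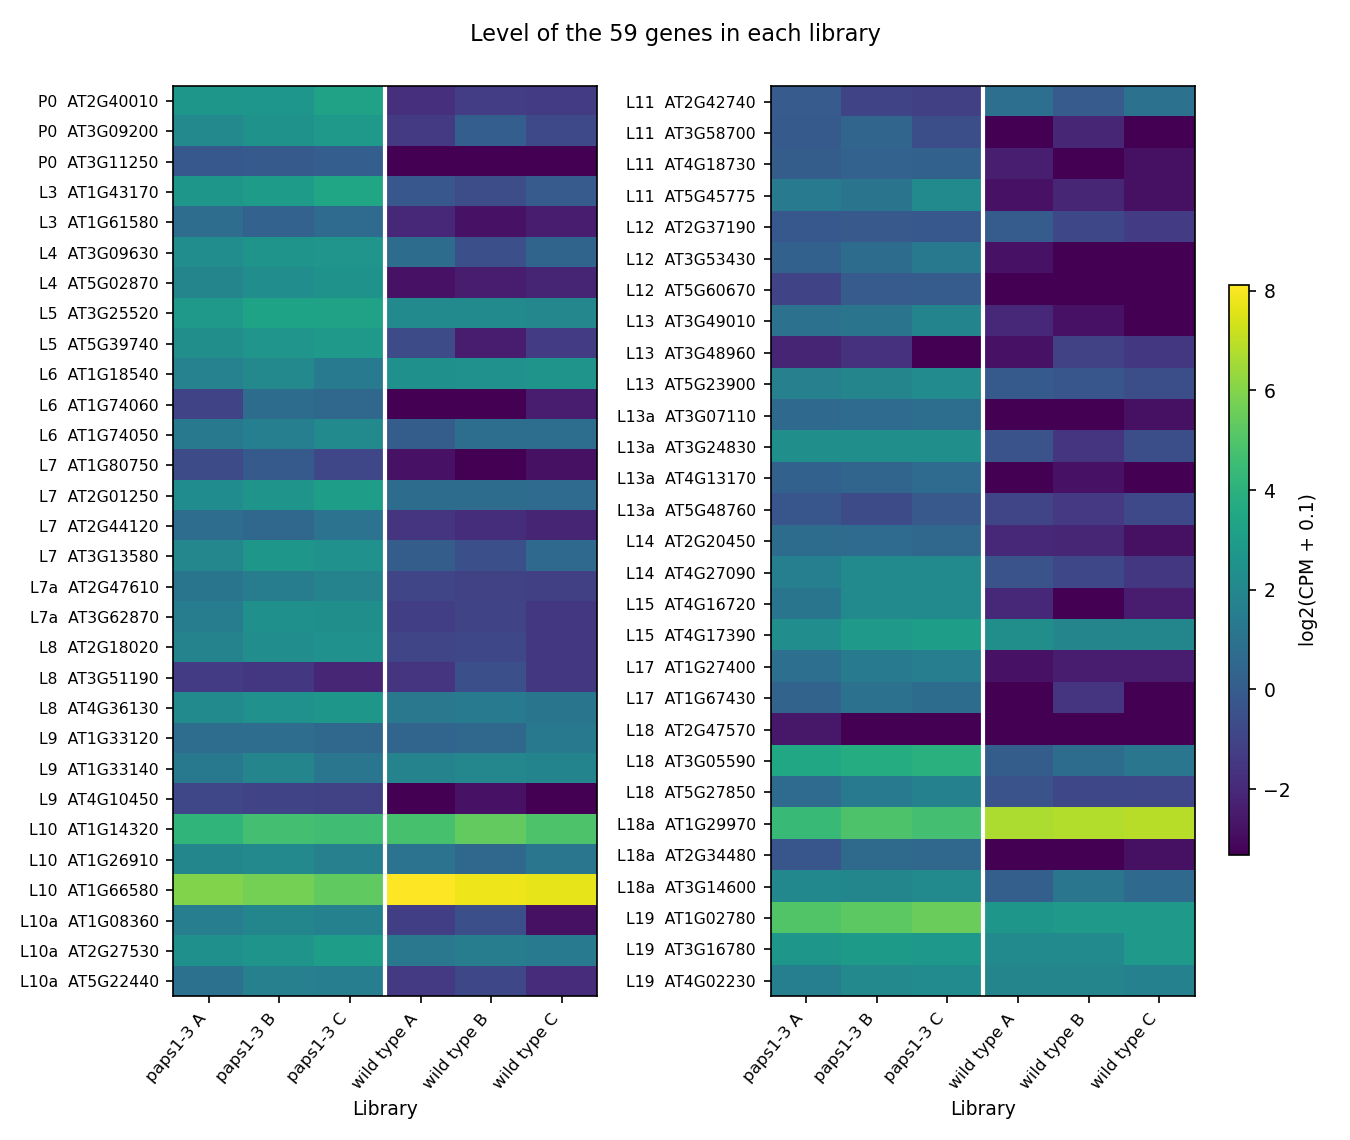
Level of each of the 59 genes in each library as log2(CPM + 0.1) with TMM scaling, paps1-3 libraries left of the white line and wild-type libraries right of it, with the genes in order of protein. The 2 brightest rows are RPL10C (AT1G66580) and RPL18AA (AT1G29970), brighter in wild type, and most other rows are brighter in paps1-3, with 39 of the 59 genes under 1 CPM in wild type and 11 in paps1-3.

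Levels per kilobase of transcript allow the genes to be ranked against each other. In paps1-3 the most abundant were RPL10C at 44.3 CPM per kb, AT1G02780 (L19) at 34.1, SAC52 (AT1G14320, L10) at 17.8, RPL18AA at 14.5 and AT3G05590 (L18) at 10.5. In wild type they were RPL10C at 206 CPM per kb, RPL18AA at 62.6, SAC52 at 25.9, AT1G02780 at 6.25 and AT3G16780 (L19) at 4.70. RPL10C thus led in both groups, by a factor that was much smaller in paps1-3.

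The stalk of the large subunit recruits the factors that drive elongation. P0 forms its base together with L12, and in both proteins the paralog that led per kb differed between the groups. The P0 gene AT2G40010 had 399, 383 and 280 counts in paps1-3, against 4, 7 and 7 in wild type, a log2 fold change of 4.75 ± 0.32 (SE, adjusted p = 3.16e-12 by edgeR). Of its exon sequence, 50.2% overlaps AT2G40008, which had at most 2 counts in a library. Reads on the shared part can be set aside as ambiguous, so that low count does not settle the overlap. The P0 gene AT3G09200, first in wild type per kb, had 249, 346 and 209 counts in paps1-3, against 6, 21 and 11 in wild type, and rose by 3.28 ± 0.34 on the log2 scale. The P0 gene AT3G11250 had 49, 51 and 28 counts in paps1-3 and 0 in each wild-type library, at least 18.6-fold higher by TMM and at least 44.7-fold by totals, taking 3 counts over the group as the limit that 0 counts allow. All P0 genes were thus higher in every paps1-3 library.

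Of the L12 genes, AT2G37190 changed least and the others most. It had 48, 50 and 23 counts in paps1-3, against 19, 10 and 7 in wild type, and was not called by TMM (0.53 ± 0.50, SE) but was called higher by totals (1.77). AT3G53430 had 66, 93 and 68 counts in paps1-3, against 1, 0 and 0 in wild type, a ratio of 98.9 with a 95% counting interval of 17.6 to 3923. AT5G60670 had 25, 53 and 26 counts in paps1-3 and 0 in each wild-type library, at least 15.1-fold higher by TMM and 36.3-fold by totals. AT2G37190 held 30.7% ± 8.2 of the L12 counts per kb in paps1-3 and 98.7% ± 2.3 in wild type, but the wild-type sum was as low as 7 counts in a library.

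L3, L4, L8 and L10 lie around the centre where peptide bonds form, and L4 and L17 line the tunnel. Both L3 genes rose: AT1G43170 (RPL3A), which the annotation also lists as an embryo defective gene, had 407, 460 and 312 counts in paps1-3, against 16, 12 and 20 in wild type (3.50 ± 0.27 on the log2 scale), and AT1G61580 (RPL3B) rose by 3.91. Of the L4 pair, AT5G02870 had 220, 288 and 163 counts in paps1-3, against 1, 2 and 3 in wild type, and rose by 5.62 ± 0.42, while AT3G09630, first in both groups, had 298, 358 and 182 counts in paps1-3, against 33, 13 and 27 in wild type, and rose by 2.35 ± 0.28. The share of AT3G09630 in the pair's counts per kb was 55.4% ± 2.4 in paps1-3 and 91.3% ± 5.3 in wild type. Both L17 genes rose. AT1G27400 had 105, 150 and 84 counts in paps1-3, against 1, 2 and 2 in wild type, and rose by 4.89 on the log2 scale. AT1G67430 had 72, 113 and 45 counts in paps1-3, against 0, 5 and 0 in wild type, and rose by 4.27, a value that was 8.89 without wild-type library B, which holds all of its wild-type counts. Of the L8 genes, AT2G18020 rose by 3.56, and AT4G36130, first in both groups, had 262, 327 and 190 counts in paps1-3, against 48, 53 and 48 in wild type, and rose by 1.25 ± 0.23. AT4G36130 held 51.5% ± 1.5 of the L8 counts per kb in paps1-3 and 71.8% ± 6.3 in wild type. The L8 gene AT3G51190 had 18, 16 and 4 counts in paps1-3, against 5, 13 and 6 in wild type, and passed the threshold neither by TMM (-0.59) nor by totals (0.65).

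L10 joins the subunit late, in the cytoplasm, and its 3 genes moved differently. Beside RPL10C, described above, SAC52 (AT1G14320), known from a screen for suppressors of a dwarf mutant, had 1093, 1565 and 704 counts in paps1-3, against 586, 897 and 691 in wild type. Its direction depended on scaling: it was called lower by TMM (-0.54 ± 0.16 on the log2 scale, adjusted p = 0.00482 by edgeR) and higher by library totals (0.69, adjusted p = 0.000879 by edgeR), and without wild-type library B the TMM value was -0.42 and not called. RPL10B (AT1G26910) had 231, 246 and 89 counts in paps1-3, against 41, 30 and 50 in wild type, and rose by 0.99 ± 0.26. RPL10C held 67.2% ± 7.1 of the L10 counts per kb in paps1-3 and 88.0% ± 2.8 in wild type, SAC52 27.6% ± 7.0 and 11.3% ± 2.9, with no overlap between groups. These shares do not depend on scaling between libraries. No stretch of 100 bases of RPL10C or SAC52 occurs unchanged in another gene. Shorter stretches and matches with mismatches were not searched, so whether these paralogs shared reads was not tested.

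L5 and L11 bind 5S ribosomal RNA and enter the subunit with it as a particle. The L5 gene AT3G25520 (RPL5A) had 444, 591 and 278 counts in paps1-3, against 92, 97 and 89 in wild type, and rose by 1.07 ± 0.19 on the log2 scale. RPL5B (AT5G39740) had 302, 379 and 209 counts in paps1-3, against 11, 2 and 7 in wild type, and rose by 4.31 ± 0.36. RPL5A remained first, with a share of the pair's counts per kb of 57.6% ± 2.0 in paps1-3 and 92.9% ± 4.6 in wild type. The coding sequences of the pair are 92.7% identical, and the proteins 97.7%.

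The L11 genes divided. RPL16A (AT2G42740), whose product is L11 in spite of the symbol, had 54, 25 and 10 counts in paps1-3, against 36, 19 and 42 in wild type, with overlapping groups. It was called lower by TMM (-1.39 ± 0.45, SE, adjusted p = 0.00835 by edgeR) and was not called by totals (-0.10). AT5G45775 had 152, 124 and 123 counts in paps1-3, against 1, 3 and 1 in wild type, and rose by 5.19 ± 0.52. RPL16B (AT4G18730) and AT3G58700 also rose, with ratios of 22.7 (95% counting interval 7.61 to 111) and 20.8 (6.96 to 102). RPL16A held 11.7% ± 6.6 of the L11 counts per kb in paps1-3 and 89.2% ± 8.8 in wild type, AT5G45775 51.0% ± 13.1 and 4.95% ± 4.98. Those genes encode nearly the same protein, with 99.5% to 100% of residues shared.

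L6, L7, L7a, L9, L10a, L13, L13a, L14, L15, L18 and L18a bind ribosomal RNA elsewhere in the subunit. The L6 genes divided: AT1G18540, first in wild type, had 203, 249 and 74 counts in paps1-3, against 112, 120 and 138 in wild type, called lower by TMM (-0.74 ± 0.22) and higher by totals (0.52). AT1G74050 had 144, 179 and 124 counts in paps1-3, against 20, 36 and 38 in wild type, and rose by 1.15 ± 0.30. AT1G74060 had 25, 93 and 39 counts in paps1-3, against 0, 0 and 2 in wild type, a ratio of 34.2 (95% counting interval 9.31 to 285). Of the exon sequence of AT1G18540, 40.05% overlaps AT1G18530 on the other strand, which had 34, 101 and 16 counts in paps1-3 and 127, 162 and 190 in wild type; the kit does not mark strand, so the values of AT1G18540 are uncertain.

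All 4 L7 genes rose, from 2.01 for AT2G01250 to 4.18 for AT1G80750 on the log2 scale. AT1G80750 is the divergent one, with 42.46% to 44.05% of residues shared with the others, and had 32, 51 and 13 counts in paps1-3, against 1, 0 and 1 in wild type. Both L7a genes rose; AT3G62870 was first in paps1-3 with 171, 315 and 147 counts, against 7, 9 and 6 in wild type, and AT2G47610 was first in wild type with 129, 167 and 98 counts in paps1-3, against 9, 8 and 8. The 3 L10a genes rose by 1.37 (AT2G27530, also named PGY1 and first in both groups) to 3.36 (AT1G08360). PGY1 had 325, 367 and 244 counts in paps1-3, against 48, 60 and 59 in wild type, and held 52.9% ± 5.5 of the L10a counts per kb in paps1-3 and 81.3% ± 10.2 in wild type.

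Of the L9 genes, the 2 with more counts were not called by TMM. AT1G33140 (PGY2) had 148, 221 and 62 counts in paps1-3, against 72, 83 and 81 in wild type, and was not called by TMM (-0.37 ± 0.25) but called higher by totals (0.87). The TMM value of AT1G33120 was likewise not called (-0.14), and its value by totals was called higher (1.13). The coding sequences of AT1G33120 and AT1G33140 are 99.2% identical, and 50.8% and 54.8% of their 100-base windows occur in the other gene, so reads can be lost to both. AT4G10450, the remaining L9 gene, had 27, 25 and 11 counts in paps1-3, against 0, 1 and 0 in wild type, a ratio of 27.4 (95% counting interval 4.75 to 1101).

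Of the L13 genes, AT3G49010 (BBC1) rose by 5.23 ± 0.58, with 115, 122 and 100 counts in paps1-3, against 3, 1 and 0 in wild type, and AT5G23900 rose by 2.37 ± 0.30. Of the L13a genes, AT3G07110 had 88, 90 and 49 counts in paps1-3, against 0, 0 and 1 in wild type, a ratio of 98.9 (95% counting interval 17.6 to 3923). AT4G13170 had 67, 75 and 44 counts in paps1-3, against 0, 1 and 0 in wild type, a ratio of 81.0 (14.4 to 3218). AT4G13160, which overlaps 54.2% of its exon sequence, had at most 8 counts in a library. Here too, reads on the shared part can be set aside as ambiguous, so that low count does not settle the overlap. AT3G24830, first in both groups, rose by 3.38 ± 0.32, with 313, 308 and 148 counts in paps1-3, against 14, 5 and 13 in wild type. AT5G48760 was not called by TMM (0.79) and called higher by totals (2.05). Both L14 genes rose, AT2G20450 by 3.75 and AT4G27090, first in both groups, by 3.09 ± 0.34. AT4G27090 had 184, 266 and 128 counts in paps1-3, against 14, 10 and 6 in wild type.

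The L15 genes were unequal. AT4G16720 had 130, 259 and 127 counts in paps1-3, against 3, 0 and 2 in wild type, and rose by 5.49 ± 0.53. AT4G17390 had 298, 426 and 248 counts in paps1-3, against 105, 79 and 85 in wild type, and rose by 0.72 ± 0.22, a call that was lost without paps1-3 library C (0.47), wild-type library B (0.58) or wild-type library C (0.60). AT4G17390 held 65.2% ± 3.8 of the L15 counts per kb in paps1-3 and 98.3% ± 1.5 in wild type. The L18 gene AT3G05590 had 709, 817 and 451 counts in paps1-3, against 20, 34 and 49 in wild type, and rose by 3.11 ± 0.23, and AT5G27850 rose by 2.21. Beside RPL18AA, the L18a gene AT2G34480 had 46, 88 and 38 counts in paps1-3, against 0, 0 and 1 in wild type, a ratio of 74.9 (95% counting interval 13.3 to 2977), and AT3G14600 rose by 1.38 ± 0.28. RPL18AA held 74.4% ± 2.8 of the L18a counts per kb in paps1-3 and 97.7% ± 0.84 in wild type.

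L19 forms a bridge to the small subunit, and AT1G02780 was the member with the most counts among those that rose. It had 1959, 2249 and 1313 counts in paps1-3, against 139, 160 and 160 in wild type, or 37.8 ± 6.7 CPM in paps1-3 and 6.93 ± 0.35 CPM in wild type, and rose by 2.45 ± 0.16 on the log2 scale (SE, adjusted p = 1.74e-12 by edgeR). In paps1-3 C it was the first of all 59 genes, with 13.1% of their counts. AT3G16780 had 398, 452 and 195 counts in paps1-3, against 92, 97 and 161 in wild type, with a TMM value of 0.39 ± 0.20 that was not called and one by totals of 1.65 that was; without wild-type library C it was called by TMM too (0.59). AT4G02230 was likewise not called by TMM (0.15 ± 0.23) and called higher by totals (1.39). AT1G02780 held 76.7% ± 2.1 of the L19 counts per kb in paps1-3 and 42.6% ± 3.1 in wild type, so here the share of the first paralog was higher in paps1-3.

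Across the 21 proteins, 12 had every tested paralog called higher by TMM and 4 (L6, L10, L11 and L18a) had a higher and a lower one. Among all genes tested, 42.3% were called higher and 29.9% lower by TMM. In P0, L7a, L14 and L17 every paralog passed the count minimum through paps1-3 but not in all wild-type libraries. Of all genes that passed in this way 76.6% were called higher, so the 12 are partly set by the filter. The counts summed per protein gave a level above that of wild type for 18 of the 21 proteins by TMM and 19 by totals. The exceptions were L10 (log2 ratio -1.82 by TMM and -0.56 by totals), L18a (-1.87 and -0.63) and, by TMM alone, L9 (-0.18). For scale, the median log2 fold change of all genes tested was 0.37 by TMM and 1.63 by totals. L6 lay under that median by TMM (0.11) and by totals (1.35), as did L9 by totals (1.07). By mean share, the paralog that was first per kb in wild type was another one in paps1-3 in 5 proteins: P0, L6, L7a, L11 and L12. In L6 this rested on paps1-3 C, where AT1G18540 held 28.1% and AT1G74050 58.1%. AT1G18540 stayed first in paps1-3 A and B. In L7a, AT3G62870 was already first in wild-type B, at 52.2% against 47.8% for AT2G47610. The share of the paralog first in wild type did not overlap between the groups in 15 proteins. It was lower in paps1-3 in 13 and higher in 2, L13a and L19. Its median over the proteins was 57.6% in paps1-3 and 76.2% in wild type. L13a was near a tie in wild type, with AT3G24830 at 50.3% and AT5G48760 at 47.1%, and AT5G48760 was first in wild-type B. The share of AT5G48760 was 9.37% in paps1-3, without overlap between the groups. With 3 against 3 libraries the two-sided exact permutation test cannot go below p = 0.1, which is 0.14 after adjustment over the proteins, so none of these shares passed a threshold of 0.05.

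Choosing the first paralog on wild-type levels by itself favours a lower share elsewhere, and 17 of the proteins had fewer than 100 wild-type counts in some library. The highest share in each library, whichever paralog held it, was therefore added after the data were seen. It was lower on average in paps1-3 in 16 of the 21 proteins. Among the 10 proteins with at least 50 counts in every library it was lower in 9, with a median of 59.0% in paps1-3 and 78.8% in wild type. The exception among the 10 is L19.

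**Figure D4:**
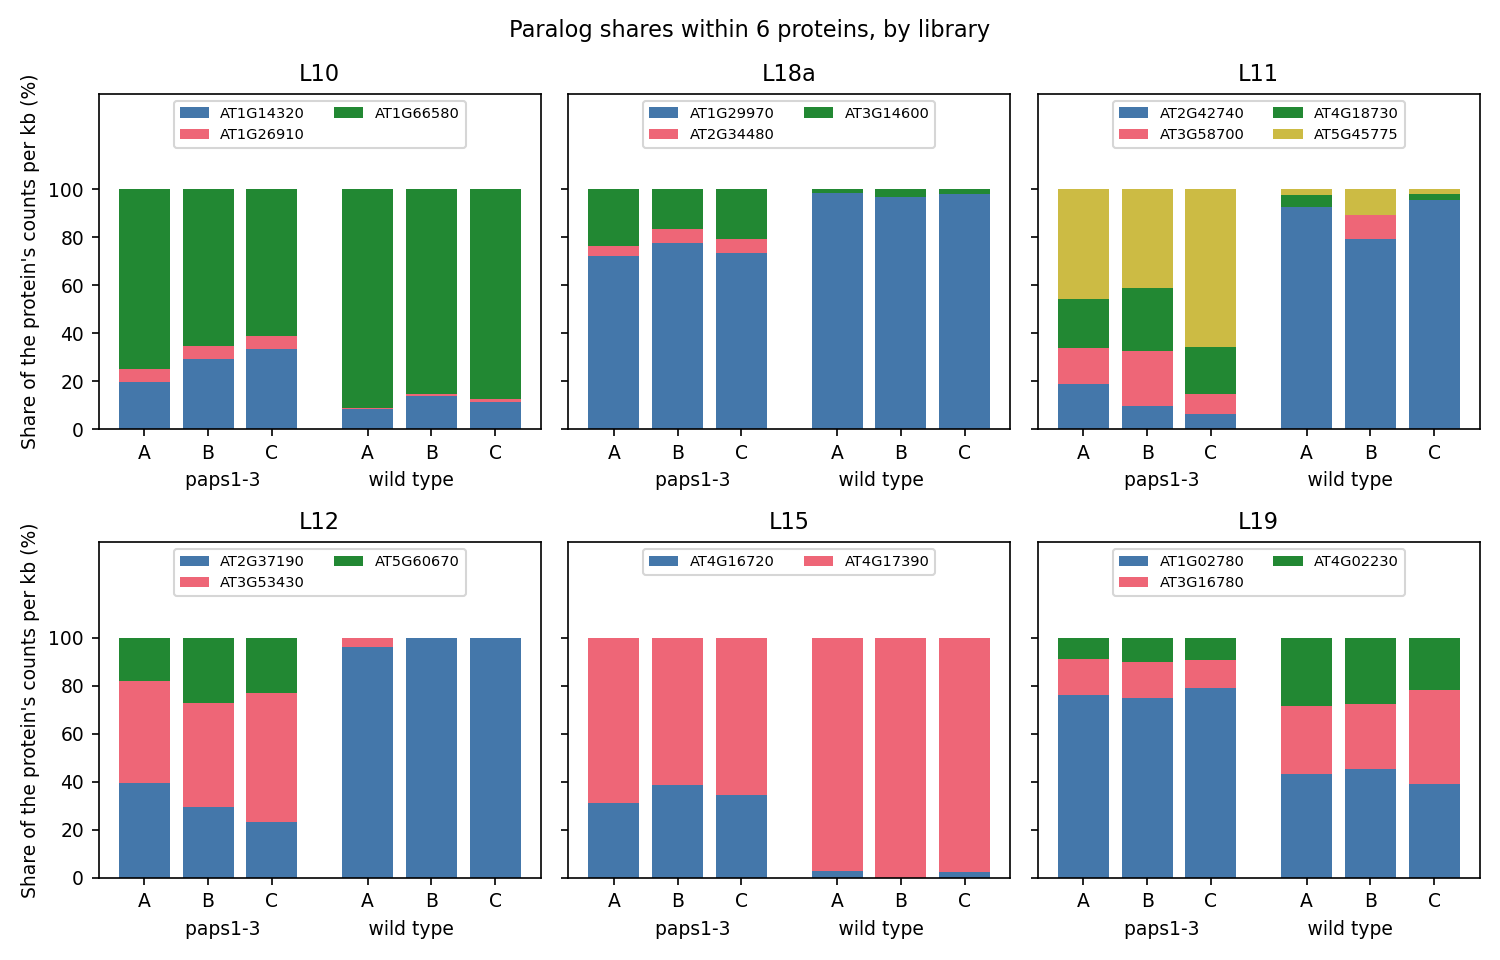
Share of each paralog in its protein's counts per kb of transcript, in percent, for 6 proteins; each bar is a library, paps1-3 A to C left and wild-type A to C right, and colours are paralogs. The first paralog of wild type shrinks in L10, L18a, L11, L12 and L15 (RPL16A holds 11.7% of L11 in paps1-3 and 89.2% in wild type), and AT1G02780 of L19 takes more in paps1-3.

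Other ribosomal protein genes were classed by their annotation, which was not checked gene by gene and may misplace some, and are read against the 42.3% higher and 29.9% lower of all genes tested. Of 48 other tested genes whose notes place them in the cytosolic large subunit, 39 were called higher (81.2%) and 2 lower (4.17%) by TMM (median log2 fold change 2.78), and 46 and 2 by totals. Of these, 39 passed the count minimum through paps1-3 but not in all wild-type libraries, and of the 9 that passed in all wild-type libraries 4 were higher and 2 lower. Of 72 tested genes placed in the small (40S) subunit, 54 were higher (75.0%) and 7 lower (9.72%) (median 2.44), and 64 and 1 by totals. Of these, 47 passed through paps1-3 but not in all wild-type libraries, and of the 25 that passed in all wild-type libraries 11 were higher and 7 lower, where all genes of that kind gave 24.5% and 47%. The 2 lower genes of the large subunit were AT1G77940, of the L7Ae/L30e family, at 4.53 CPM in paps1-3 and 20.3 CPM in wild type (-2.15 ± 0.16, SE), and AT3G23390, of a zinc-binding family (-2.56 ± 0.24). AT4G29410, for L28e, rose by 5.14 ± 0.57. AT4G16030, of the L19e family, was among the genes called higher, and the L19 shares above leave it out. AT1G29965, of the L18ae/LX family and not tested, is likewise left out of the L18a shares. Of the small subunit, the S3 gene AT5G35530 rose by 3.22 ± 0.21, RPS15A (AT1G07770) by 4.79 ± 0.34 and the S6e gene AT5G10360 by 2.57 ± 0.20. Of 25 tested nuclear genes that the annotation ties to plastid or mitochondrial ribosomes, 12 were higher (48%) and 5 lower (20%) (median 1.03, against 0.37 for all genes), and 18 and 2 by totals; of the 10 that passed in all wild-type libraries 1 was higher and 4 lower. PRPL28 (AT2G33450), for a plastid ribosomal protein, was at -2.77 ± 0.18 and lower by totals too. AT1G22110 was lower by TMM (-0.70) and higher by totals (0.54). AT2G07715 rose, with 4.16 CPM in paps1-3 and 0.26 CPM in wild type. Whether its reads came from RNA of the mitochondria, which was higher in paps1-3, was not tested.

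Factors that assemble the large subunit and carry it out of the nucleus had 20 of 30 tested genes higher (66.7%) and 5 lower (16.7%) by TMM (median 1.83), and 26 and 2 by totals. Of the 30, 19 passed the count minimum through paps1-3 but not in all wild-type libraries, 17 of them higher; of the 11 that passed in all wild-type libraries 3 were higher and 5 lower, near the 24.5% and 47% of all such genes. The nucleolar genes FIB2 (AT4G25630), for fibrillarin, and AT5G27120, of the NOP56 family, were nearly or fully without counts in wild type. The paps1-3 libraries held 55, 119 and 51 counts of FIB2, against 0, 0 and 1 in wild type. Counts of AT5G27120 were 84, 127 and 48 in paps1-3 and 0 in all wild-type libraries. AT4G31420, annotated as a zinc finger protein, was the most abundant of the decreases at 86.0 CPM in paps1-3 and 317 CPM in wild type (-1.88 ± 0.14), and the Brix domain gene AT3G15460 was at -2.49 ± 0.22; both were lower by totals too.

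Of 13 initiation and elongation factors, 10 were higher (76.9%) and 3 lower (23.1%) by TMM (median 1.52), and 11 and 1 by totals. All 13 passed the count minimum in every wild-type library, where all genes of that kind gave 24.5% higher and 47% lower. LOS1 (AT1G56070), for elongation factor 2, which moves the ribosome along the messenger RNA, rose by 3.02 ± 0.20, and AT5G60390, of the elongation factor Tu family, rose by 3.25 ± 0.22. ELF5A-3 (AT1G69410) went the other way, at 1.08 CPM in paps1-3 and 11.8 CPM in wild type (-3.45 ± 0.22), and was lower by totals as well. TOR kinase and the S6 kinases, which link nutrients to ribosome production, were mostly lower by TMM: TOR (AT1G50030) was at -1.12, S6K2 (AT3G08720) at -1.37 and the S6 kinase gene AT3G08730 at -2.74 ± 0.14, while RAPTOR1 (AT3G08850) rose by 0.59. By totals TOR and S6K2 were not called (0.13 and -0.11), AT3G08730 was still lower (-1.49) and RAPTOR1 higher (1.83). RAPTOR1 was not called by TMM without paps1-3 library C.

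Markers of sperm cells, which lie inside the pollen grain, and of tapetum and green tissue were measured beside these genes. The 5 sperm cell markers summed to 0.0134% to 0.0191% of counts in paps1-3 and 0.0204% to 0.0243% in wild type, with 4 tested and all 4 called lower by TMM, 1 by totals. These 4 reached the count minimum in every wild-type library, and all genes of that kind gave 47% lower by TMM and 15.4% by totals. The 10 tapetum markers ranged in sum over 0.000272% to 0.00057% of counts in paps1-3 libraries, against 0.000127% to 0.000177% in wild-type libraries, with AT5G07230 at 0 in all libraries. Of the 3 tested, LAP6 (AT1G02050) rose by 2.54 and MYB80 (AT5G56110) by 1.78, and AMS (AT2G16910) was lower by TMM at -1.17. The 10 green tissue markers ranged in sum over 0.000433% to 0.000594% in paps1-3 libraries, against 0.000361% to 0.000401% in wild-type libraries, with CAB3 (AT1G29910) at 0 in all libraries. That sum is mostly RBCS3B (AT5G38410), lower by TMM (-1.48) and not called by totals (-0.23). The other 9 green markers summed to 94, 77 and 41 counts in paps1-3, against 5, 4 and 4 in wild type, and PSBO1 (AT5G66570), the other one tested, rose by 4.03. At least 1 count was found for 24587 to 30343 genes in paps1-3 libraries and 16869 to 19668 in wild-type libraries. The part of these differences in the changes of the ribosomal protein genes was not tested.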

How the data were processed

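RNA of sorted pollen was sequenced in 6 libraries, 3 per genotype, made with the Ovation RNA-seq system v2, which does not mark strand. Per the submitters' processing notes, the authors aligned with TopHat2 to TAIR10 and counted with HTSeq, and they deposited the counts unnormalized; the sources used here name no version or option. Rows that name no gene were left out: reads without a feature were 1.25% to 1.88% of all rows in paps1-3 and 1.18% to 1.34% in wild type, and reads at several positions 7.90% to 11.6% and 5.30% to 6.14%. Genes were matched by identifier to the later RefSeq annotation of TAIR10.1, which gave symbols, lengths and promoters. The members and lists were chosen with earlier results of these data known, and support nothing by their choice.

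Differences were tested with edgeR 4.0.16 in R 4.3.3 (quasi-likelihood test, TMM factors, genotype as the only term, filterByExpr with minimum count 10 and minimum total 15), adjusted over all 14273 tested genes at 0.05. Log2 fold changes carry standard errors. Levels are CPM computed from the deposited counts as mean ± SD of 3 libraries. Bounds take 3 counts over the group for a group at 0. Bounds and counting intervals (95%, exact binomial) cover counting error only. Paralog shares are counts per kb of annotated exon sequence within a library, compared by exact permutation over libraries. Values were given for the largest changes, the most abundant genes in each group, the leading paralogs that differ between groups and genes whose direction depends on scaling; from other lists, up to 3 called genes with the smallest p, FIB2 and RAPTOR1 being chosen after their values were seen. Alternatives were other scalings, filters, DESeq2 1.42.0, the letter as a block and each library left out. The test was checked on simulated counts of 8335 genes, where 76% of 2-fold and 94% of 4-fold changes were called. That simulation held no genes with few wild-type counts and no shift in scaling between the groups. It does not show how the test behaves in those cases.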

Additional observations from a re-analysis of the deposited data

Results flagged for a closer look

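Reads placed at several positions of the genome, which enter no gene count, made up 9.84% ± 1.87 of all counts deposited for paps1-3 and 5.59% ± 0.48 of those for wild type (mean and SD of 3 libraries), and every paps1-3 library lay above every wild-type library. They stand out as a signal outside the gene counts that was higher than in the control libraries. Which genes these reads came from is not recorded in the counts. The sources used here do not say whether such a read was counted at each of its positions, so the percentages may not be shares of reads. Among the 59 genes, AT1G33120 and AT1G33140 (L9) share 50.8% and 54.8% of their 100-base windows with each other. AT2G42740 and AT3G58700 (L11) share 2.27% and 1.68% with each other, and AT5G39740 (L5) shares 0.74% with AT5G40130.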

How the results depend on the processing

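The number of genes called higher stayed between 41 and 53 under all settings, against 45. The number called lower was 2 by library totals, against 5, and 4 to 6 with 1 library left out. With the library letter as a replicate block, 46 were called higher and 5 lower, and the one changed call was AT3G16780 (0.42, adjusted p = 0.0338 by edgeR), which a filter of 1 CPM in 3 libraries also let pass (0.53). Same-letter deviations correlated at 0.231, 0.0989 and 0.0755, against -0.156 to 0.068 for different letters; each library correlated best with its own letter, a hint from the data, but not every pair was over 0.1. Library totals turned AT1G18540 (0.52), AT3G51190 (0.65), AT1G33120 (1.13), AT1G33140 (0.87) and AT1G14320 (0.69) positive. AT1G33120 was also positive with a filter of 1 CPM in 3 libraries (0.015) and ran from -0.37 to 0.15 with 1 library left out, the highest without wild-type C; AT4G02230 ran from -0.027 without paps1-3 C to 0.32. The family's summed log2 ratio, -0.46 by TMM, was 0.78 by totals and 1.40 without RPL10C and RPL18AA. By totals, calls lower were 2 for 60S assembly factors, 1 for translation factors, 1 for TOR and S6 kinases, 1 for 40S genes and 2 for organellar genes. With a filter of 1 CPM in 3 libraries, 4 genes of the 40S subunit were lower, and 4 organellar genes higher and 2 lower. With 1 library left out, 0 to 1 TOR and S6 kinases were higher and 3 to 5 organellar genes lower. The share of AT5G23900 in L13, 2.88 percentage points higher in paps1-3, was -11.8 on raw counts or coding length and ran from -2.43 to 11.9 with 1 library left out, at -2.43 without wild-type B and -0.84 without wild-type C; the other 20 share differences kept their sign. Leaving out 1 library moved the fold of 14 of the 50 called genes by over 1.5 times, each with at most 21 wild-type counts in all, and all 14 were called in every such setting. DESeq2 and its size factors changed no call of these genes. Genes with under 10 wild-type counts per library, 31 of 59, give folds of low precision.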
